A study of Homo sapiens with 5 samples.

Results

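The genes described here are a panel of cholesterol and SREBP lipid synthesis genes: enzymes that make cholesterol and fatty acids, the proteins that sense sterols and control SREBP, and proteins that move sterols. Members were taken by gene symbol from a list of pathway genes; no measured value is part of the rule, although the list was drawn up with earlier results of these data known. All 35 were found among the 64252 gene identifiers of the table, and 34 of the 35 had enough counts to be tested, out of 15341 genes tested in all. The remaining gene, ABCG1, a sterol exporter, had 0 counts in each library, which allows up to 3 reads per library by counting error alone.

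Cells make cholesterol from acetyl-CoA through mevalonate and squalene, and the same acetyl-CoA feeds fatty acid synthesis. SREBP transcription factors are held in the endoplasmic reticulum by SCAP and INSIG proteins while sterols are plentiful, and are cut free to activate genes of both branches when sterols fall. INSIG1 is itself a target of SREBP, which makes its mRNA a common readout of the pathway, while ABCA1 is a common readout of LXR, the receptor for oxysterols.

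The study compared the transcriptome of control cells with that of cells after knock-down of FAM53C, a protein it connects with the kinase DYRK1A and entry into S phase. It also reports that RPE-1 cells accumulated in G1 after this knock-down. The part of that in the values below was not tested. RPE-1, an immortalized human retinal pigment epithelial cell line, was transfected either with the ON-TARGET Control #1 siRNA (siCtrl, 3 libraries, genotype label WT) or with an ON-TARGETplus pool of siRNAs against FAM53C (siFAM53C, 2 libraries, genotype label FAM53C KD). The siRNA was at 5 µM with Lipofectamine RNAiMAX in every sample, all cells grew in medium with bovine growth serum, and polyA RNA was taken at 48 hr. Serum carries lipids, and 1 medium is given for both groups. As models, the groups rest on 1 cell line, 1 control siRNA and 1 siRNA pool, and no label or method says that the libraries of a group came from separate cultures, so the p-values measure the spread between these libraries, which may be technical.

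FAM53C was at 60.9, 59.7 and 57.6 CPM (read counts scaled to a common library size) in siCtrl replicates 1, 2 and 3 and at 14.2 and 22.3 CPM in siFAM53C replicates 1 and 2. It fell by 1.71 on the log2 scale (adjusted p = 0.00363), and the groups did not overlap. Each adjusted p is the Benjamini-Hochberg value over all genes tested from the quasi-likelihood test of edgeR, unless another tool is named. Totals ran from 19260124 to 25615415 counts. The libraries were also spread along a first principal component, 39.8% of the variance, that did not separate the groups: siCtrl 1 and 2 were at -31.5 and -47.4, siCtrl 3 at 33.7, siFAM53C 1 at 0.26 and siFAM53C 2 at 44.9. The mitochondrial share of counts was higher in siCtrl 3 and siFAM53C 2 (4.51% and 4.79%) than in the other 3 libraries (3.56% to 3.89%). This split, read from the data, is called the library split below. It coincides with a number in the column names of the count table, where siCtrl 3 and siFAM53C 2 both carry the number 3 although the title of the latter gives replicate 2; no source says what that number marks. The split is not a labelled batch, and differences are also given within each of its sides: siFAM53C 1 against siCtrl 1 and 2, and siFAM53C 2 against siCtrl 3. Of 7 markers of retinal pigment epithelium, 5 had enough counts to be tested. The summed level of the 7 lay at 54.1 to 69.3 CPM in siCtrl and at 52.4 and 62.9 CPM in siFAM53C. Most of this sum came from MITF, with 713 to 1053 reads per library, and OTX2, with 281 to 403. SERPINF1 had 20 to 79 reads per library, PMEL 13 to 29 and BEST1 4 to 15. RLBP1 had at most 1 read per library, and 1 marker was at 0 counts in every library. The 2 markers of simple epithelium summed to 384 to 467 CPM in siCtrl and to about 500 CPM in siFAM53C (499.98 and 501.8), and 3 mesenchymal markers to 8252 to 11288 and to 8745 and 10774 CPM. Of these 3, COL1A1 was called higher (log2 fold change 0.74, adjusted p = 0.0310). Blood markers summed to at most 1.15 CPM in any library, with CD3E at 0, and neuronal markers to at most 4.82 CPM. Their part in the results was not tested.

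The sequences that bear on these genes are of 2 kinds. The first is promoter DNA, from RefSeq (GRCh38.p14), 250 bases before to 50 bases after each annotated start. Shown are 30-base windows, 5′ to 3′ on the strand of the gene, from the gene of an SREBP itself, from a called gene of the mevalonate steps, from the INSIG1 readout, and from both genes that were called lower. Capitals mark the motif: the sterol regulatory element TCACNCCAC in the first line and, in the others, the NF-Y box CCAAT, read as ATTGG on the opposite strand.
SREBF2, chr22:41832962-41832991, plus strand: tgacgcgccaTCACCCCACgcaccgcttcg
HMGCS1, chr5:43313495-43313524, minus strand: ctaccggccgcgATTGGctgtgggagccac
INSIG1, chr7:155297696-155297725, plus strand: cgccggcctcccATTGGttgcggccgcctc
EBP, chrX:48521766-48521795, plus strand: cttcgcttcaccATTGGctcgctccgtaag
ACLY, chr17:41919028-41919057, minus strand: gaacgcgtgtggCCAATcgcggggccgttc

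Promoters of 30 of the 35 genes were matched by symbol, some with up to 3 starts, and each motif was searched on both strands; FASN, FDFT1, SQLE, ACAT2 and ABCG1 were not searched. A gene counts as holding a motif where any of its promoters does, so the share of promoters and that of genes are both given as background. Neither background was limited to genes tested here, so a difference from it is not a result about the pathway. The letters TCACNCCAC occurred in the promoter of 1 gene, SREBF2, at position -133 from the start, against 1.12% of 34796 promoters of this length and 1.39% of 27305 genes. CCAAT occurred for 21 of the 30 genes, against 34.6% of all promoters and 39.7% of all genes, and the Sp1 box GGGCGG for 29 of the 30, against 44.9% and 48.3%. In SREBF2 the element did not overlap the CCAAT box, and matches to GGGCGG can overlap each other in longer runs of G and C. The CCAAT box was present for a gene that was called higher (HMGCS1) and for both that were called lower (EBP and ACLY), and it was not found for SREBF1; FASN, the other gene called higher, had no promoter to search. A match is a description of the letters and not evidence of a bound factor. Only these letters within this stretch of promoter were searched, so the lack of a match is not evidence that a gene lacks a sterol regulatory element.

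The second kind is the heptamer GACAAGA in the longest annotated 3′ UTR (GENCODE release 44), which an earlier look at these data had linked to lower counts in siFAM53C. Genes of the panel that hold it are shown as 30-base windows on the strand of the gene, with the heptamer in capitals.
IDI1, chr10:1039943-1039972, minus strand: ttataatttcaGACAAGActgtttagcaag
STARD4, chr5:111498388-111498417, minus strand: aagggatttgtGACAAGAtagtacacatta
SCD, chr10:100364714-100364743, plus strand: tagttacttgtGACAAGAataattttggaa
ACLY, chr17:41867759-41867788, minus strand: agtaaactgaaGACAAGAtctcttccccca
ELOVL6, chr4:110047443-110047472, minus strand: tacctgggagaGACAAGAtgctcaggttac

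Across the panel, knock-down of FAM53C came with more mRNA of HMGCS1, SREBF1 and FASN and with less of ACLY and EBP. Of the 34 genes tested, 3 were called higher, where 0.489% of all genes tested were called higher, and 2 were called lower, where 3.47% were called lower. The median log2 fold change of the panel was 0.30, beside 0.02 over all genes tested. In the panel 24 genes lay above 0 and 10 below, beside 7950 and 7391 of all 15341 genes tested. Both siFAM53C libraries were above every siCtrl library for 10 genes, where this held for 16.7% of all genes tested, and below every siCtrl library for 5, where it held for 18.8%. The panel's medians were 0.34 and 0.36 within the sides of this split, with 22 genes above 0 on both sides, 8 below 0 on both and 4 with sides of different sign. Fewer cells with an mRNA and less of it per cell cannot be told apart in these bulk libraries.

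**Figure D1:**
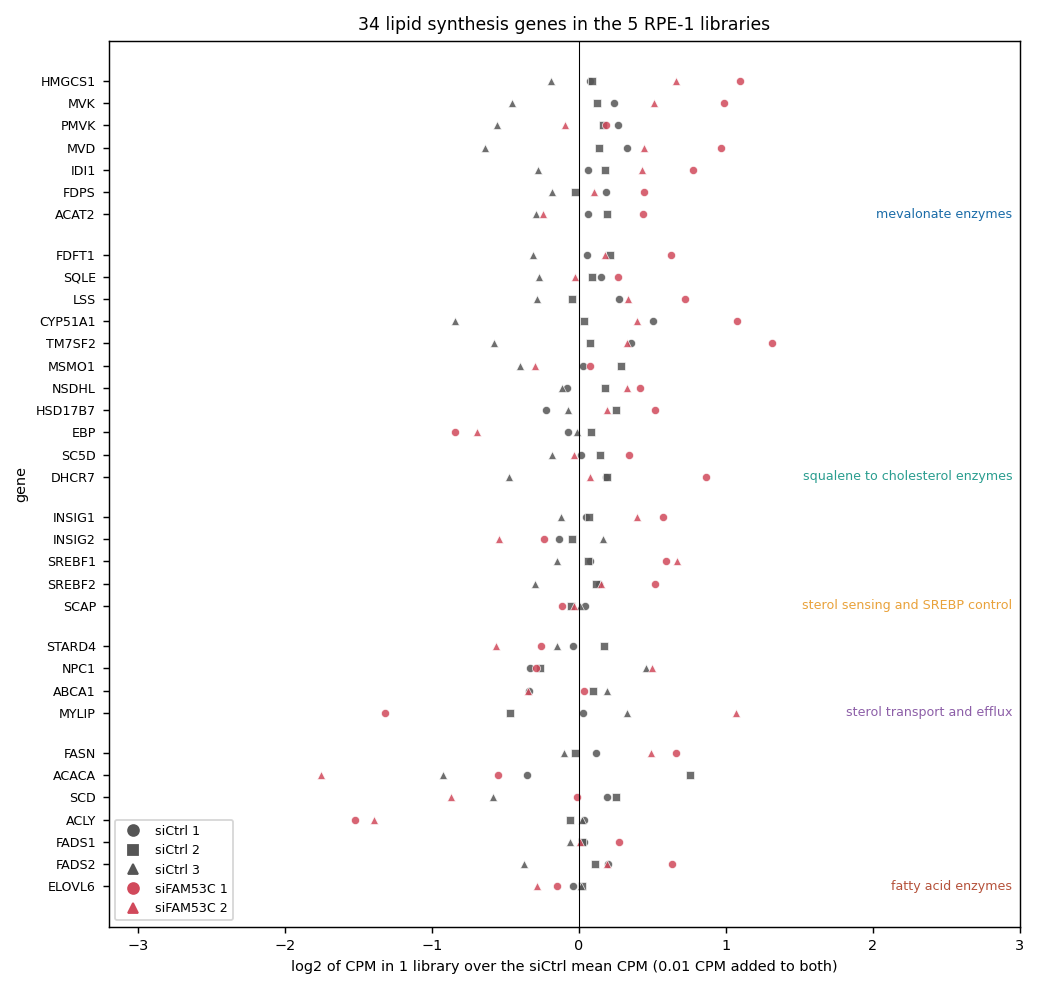
Each row is 1 of the 34 tested genes, ordered by role, and each point is 1 library, placed by the log2 of its CPM over the siCtrl mean (x axis, 0.01 CPM added to both). The siFAM53C points of ACLY and EBP lie left of every siCtrl point and those of HMGCS1, SREBF1 and FASN lie right of them, while siCtrl 3 and siFAM53C 2 (triangles) lie left of their group mates for most sterol enzymes.

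The number of calls depended strongly on the library split and on single libraries. With a term for the split, 16 of the 34 genes were called higher, where that fit called 6.76% of all genes higher, and 4 lower, where it called 10.7% lower; this term was read from the data and leaves few degrees of freedom. DESeq2 called 6 higher, where it called 2.02% of genes higher, and 2 lower, where it called 6.98% lower. Without siCtrl 1 or siCtrl 2, 0 genes of the panel were called higher by edgeR and 1 lower, ACLY. Without siCtrl 3, 5 were called higher and 2 lower. The panel's median log2 fold change was 0.12 without siFAM53C 1 and 0.42 without siFAM53C 2. In the fits without siCtrl 1 and without siCtrl 2, 11 and 8 panel genes rose with an unadjusted p under 0.05. The matching share of all genes is not given for these fits, so these counts are not a result about the panel. No other tool was run with a library left out. At an unadjusted p under 0.05, 10 genes were higher with all libraries, where 6.61% of all genes were, and 3 lower, where 10.5% were.

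The 7 enzymes of the mevalonate steps were the group with the highest median, at a log2 fold change of 0.61 over a range of 0.05 to 0.89, and each of the 7 lay above 0. HMGCS1 was called higher, and the other 6 did not pass. HMGCS1 (ENSG00000112972, chr5:43287470-43313512, minus strand), the cytosolic synthase that makes HMG-CoA, was at 60.3, 60.9 and 50.2 CPM in siCtrl and at 122 and 90.4 CPM in siFAM53C. Both siFAM53C libraries were above every control, a rise of 0.89 on the log2 scale (adjusted p = 0.0222, SE 0.155), or 1.86-fold in mean CPM. It was 1.01 and 0.85 within the sides of the split. It was not called without siCtrl 1, siCtrl 2 or siFAM53C 1 (adjusted p up to 0.168 over 15 alternatives, called in 12). Opposite-strand genes cover 37.7% of its exon length, and no source states whether counting used strand.

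MVK, the mevalonate kinase, was at 28.9, 26.7 and 17.9 CPM in siCtrl and at 48.7 and 35.0 CPM in siFAM53C. The groups did not overlap, yet the log2 fold change of 0.77 (SE 0.23) did not pass (adjusted p = 0.140). MVD, which decarboxylates mevalonate diphosphate, and IDI1, the isopentenyl diphosphate isomerase, also had both siFAM53C libraries above every control, with log2 fold changes of 0.73 (95% interval 0.02 to 1.43) and 0.61 (0.23 to 1.00) and adjusted p of 0.276 and 0.101. MVK and IDI1 were called higher by DESeq2 (adjusted p = 0.0308 and 0.0244), and MVD was not (adjusted p = 0.108). The remaining enzymes of these steps overlapped between the groups: FDPS, which makes farnesyl diphosphate, at 0.28, ACAT2, an acetoacetyl-CoA thiolase, at 0.14, and PMVK, the phosphomevalonate kinase, at 0.05. With the term for the split, 5 of the 7 were called higher (HMGCS1, MVK, MVD, IDI1 and FDPS), with log2 fold changes from 0.33 to 0.94. That fit called 6.76% of all genes higher.

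Of the 11 enzymes that turn squalene and its precursor into cholesterol, 9 lay above 0, and 1 was called, EBP, which was lower. At an unadjusted p under 0.05, 3 were higher, where 6.61% of all genes were, and DESeq2 also called EBP alone. Their median log2 fold change was 0.37. EBP (ENSG00000147155, chrX:48521799-48528716, plus strand), a sterol isomerase late in the pathway, was at 39.9, 44.5 and 41.6 CPM in siCtrl and at 23.4 and 26.0 CPM in siFAM53C. It fell by 0.77 on the log2 scale (adjusted p = 0.0167, 95% interval -1.06 to -0.48), with -0.85 and -0.68 within the sides of the split, so that it went against the direction of most enzymes around it. It was not called without siCtrl 1, siCtrl 2, siFAM53C 1 or siFAM53C 2 (adjusted p up to 0.167 over 15 alternatives, called in 11). Of its exon bases, 36.4% also belong to a second annotated gene on the same strand, and no source states how reads there were counted.

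The largest positive value of these enzymes was that of TM7SF2, a sterol reductase, at 10.6, 8.74 and 5.55 CPM in siCtrl and 20.6 and 10.4 CPM in siFAM53C. One siFAM53C library was far above the controls and the other lay just below the highest of them, and the log2 fold change of 0.90 (SE 0.356) did not pass (adjusted p = 0.254). CYP51A1, the lanosterol demethylase, had 126, 74 and 40 reads in siCtrl and 211 and 117 reads in siFAM53C, or 3.77 ± 1.63 (SD, n = 3) and 6.47 ± 2.13 CPM (SD, n = 2). Its groups overlapped, its log2 fold change of 0.77 (SE 0.413) did not pass (adjusted p = 0.402), and 68.2% of its exon length also belongs to other annotated genes of the same strand, so its low level is uncertain. LSS, the lanosterol synthase, and NSDHL, a sterol dehydrogenase, had both siFAM53C libraries above every control, at 0.54 (95% interval 0.07 to 1.02) and 0.37 (0.05 to 0.69), and neither passed (adjusted p = 0.234 and 0.223). DHCR7, a last-step reductase, was at 0.53, FDFT1, the squalene synthase, at 0.42, HSD17B7, a ketosteroid reductase, at 0.36, SC5D, a sterol desaturase, at 0.17, and SQLE, the squalene epoxidase, at 0.13. MSMO1, a sterol monooxygenase, was at -0.10 and turned to 0.10 on the side of siFAM53C 2. With the term for the split, 6 of the 11 were called higher (TM7SF2, CYP51A1, DHCR7, LSS, FDFT1 and NSDHL) and EBP lower. That fit called 6.76% of all genes higher and 10.7% lower.

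The 18 cholesterol enzymes of both steps summed to 923, 963 and 699 CPM in siCtrl replicates 1, 2 and 3 and to 1266 and 932 CPM in siFAM53C replicates 1 and 2. The groups overlapped, since siFAM53C 2 lay below siCtrl 2. Within the sides the sum was 1.34 times that of siCtrl 1 and 2 in siFAM53C 1 and 1.33 times that of siCtrl 3 in siFAM53C 2, against 1.28 times over all libraries. These ratios are given with no test.

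**Figure D2:**
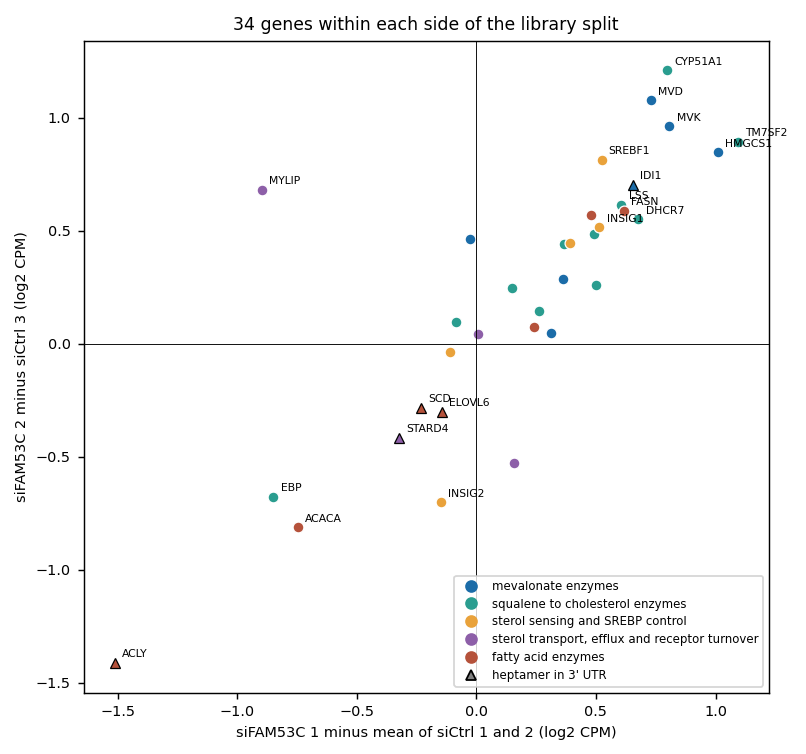
Each point is 1 of the 34 tested genes: the x axis is its log2 CPM in siFAM53C 1 minus the mean of siCtrl 1 and 2, and the y axis that in siFAM53C 2 minus siCtrl 3. 22 genes lie in the upper right and 8 in the lower left; the 5 triangles, genes with the heptamer in the 3′ UTR, include ACLY at the lower left corner (-1.51 and -1.41) and IDI1 at the upper right (0.65 and 0.70).

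Among the 5 genes of sterol sensing and SREBP control, 1 was called, SREBF1, which was higher, and the median was 0.35. SREBF1 (ENSG00000072310, chr17:17810399-17837002, minus strand), which encodes SREBP-1, the regulator tied mostly to fatty acid synthesis, was at 69.3, 68.9 and 59.4 CPM in siCtrl and at 99.3 and 105 CPM in siFAM53C. It rose by 0.63 on the log2 scale (adjusted p = 0.0238, SE 0.112), with no overlap and with 0.52 and 0.82 within the sides. It was not called without siCtrl 1, siCtrl 2, siFAM53C 1 or siFAM53C 2 (adjusted p up to 0.176 over 15 alternatives, called in 11). SREBF2, which encodes SREBP-2, the regulator tied mostly to cholesterol synthesis, was at 204, 201 and 151 CPM in siCtrl and at 265 and 205 CPM in siFAM53C. One of its siFAM53C libraries was only just above the highest control, and the log2 fold change of 0.35 (SE 0.171) did not pass (adjusted p = 0.361).

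INSIG1 was at 81.1, 82.3 and 71.9 CPM in siCtrl and at 117 and 103 CPM in siFAM53C. The groups did not overlap, and the log2 fold change of 0.49 (SE 0.113) missed the threshold (adjusted p = 0.0630); DESeq2 called it (adjusted p = 0.0138), and it was called in 7 of 15 alternatives. The value was 0.51 and 0.52 within the sides of the split. INSIG2, the second INSIG protein, went the other way, with both siFAM53C libraries below every control and a log2 fold change of -0.38 (95% interval -0.81 to 0.05, adjusted p = 0.357). SCAP, the escort of SREBP, was at -0.07 (-0.30 to 0.16), the narrowest interval of these 5. With the term for the split, SREBF1, INSIG1 and SREBF2 were called higher, where that fit called 6.76% of all genes higher.

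**Figure D3:**
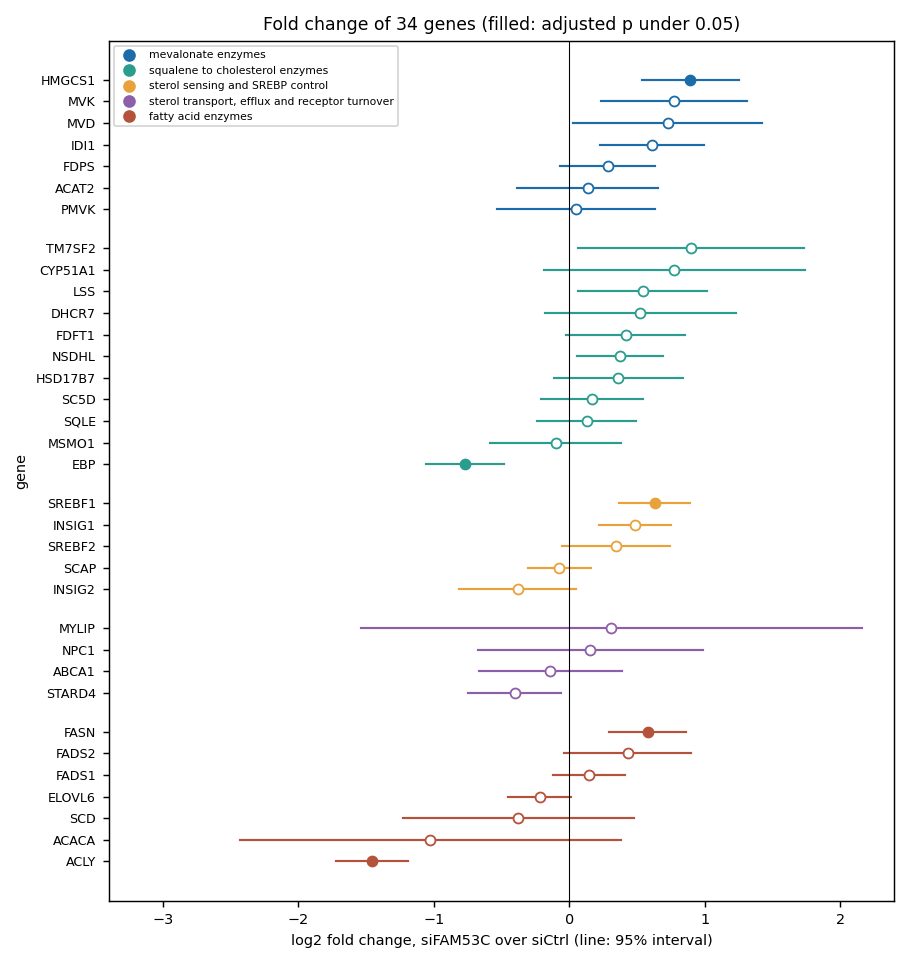
Each point is the log2 fold change of 1 gene, siFAM53C over siCtrl (x axis), with its 95% interval as a line, coloured by role and filled where the adjusted p was under 0.05. The filled points are HMGCS1, SREBF1 and FASN right of 0 and EBP and ACLY left of it, and the widest interval is that of MYLIP (-1.54 to 2.16).

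Of the 5 genes of sterol transport, efflux and receptor turnover, 4 were tested, and 0 were called higher and 0 lower by edgeR's quasi-likelihood test. At its unadjusted p under 0.05, 0 were higher and 1 lower, where 6.61% and 10.5% of all genes were. DESeq2 called 0 either way. ABCA1, the sterol exporter and LXR readout, was at 9.64, 13.0 and 13.9 CPM in siCtrl and at 12.5 and 9.59 CPM in siFAM53C. The groups overlapped, and the log2 fold change was -0.14 (95% interval -0.67 to 0.39, adjusted p = 0.828). STARD4, a carrier of cholesterol between membranes, was at 50.9, 58.8 and 47.2 CPM in siCtrl and at 43.7 and 35.4 CPM in siFAM53C. Both siFAM53C libraries were below every control, with a log2 fold change of -0.40 (adjusted p = 0.219, SE 0.147), and STARD4 was called lower with the term for the split (-0.37, adjusted p = 0.0227).

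NPC1, which exports cholesterol from lysosomes, followed the library split and not the knock-down. Its level was 163 CPM in siCtrl 3 and 168 CPM in siFAM53C 2, and 94.6, 99.2 and 97.2 CPM in siCtrl 1, siCtrl 2 and siFAM53C 1. MYLIP, a ligase that degrades lipoprotein receptors, had 6 to 29 reads per library, and its log2 fold change of 0.31 had an interval of -1.54 to 2.16, so that no difference was detectable at this depth. Its levels were 0.594, 0.419 and 0.733 CPM in siCtrl and 0.227 and 1.23 CPM in siFAM53C.

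The 7 fatty acid enzymes held the largest fall and one of the rises: 1 was called higher and 1 lower, with a median of -0.22. ACLY (ENSG00000131473, chr17:41866917-41930542, minus strand), which cleaves citrate into the cytosolic acetyl-CoA that both branches use, was at 541, 507 and 535 CPM in siCtrl and at 184 and 201 CPM in siFAM53C. All siCtrl libraries were within a narrow range and both siFAM53C libraries were far below it. It fell by 1.46 on the log2 scale (adjusted p = 0.000963, SE 0.114), to 0.364 times the siCtrl mean. Within the sides it was -1.51 and -1.41, and it was called lower in all 15 alternatives with a test (log2 fold change -1.53 to -1.39, adjusted p up to 0.0163). In siCtrl it had the highest level per exon length of the panel, 101 CPM per kb, ahead of SCD at 80.5 and FASN at 55.7 CPM per kb.

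FASN (ENSG00000169710, chr17:82078338-82098294, minus strand), the fatty acid synthase, was at 563, 510 and 485 CPM in siCtrl and at 822 and 729 CPM in siFAM53C. It rose by 0.58 on the log2 scale (adjusted p = 0.0435, SE 0.121), with no overlap and with 0.62 and 0.59 within the sides. The call was lost without siCtrl 1, siCtrl 2, siFAM53C 1 or siFAM53C 2 (adjusted p up to 0.330 over 15 alternatives, called in 11). ACLY and FASN, which act in the same route, thus moved in opposite directions.

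ACACA, the acetyl-CoA carboxylase between them, was at 8.40, 18.2 and 5.66 CPM in siCtrl and at 7.33 and 3.18 CPM in siFAM53C. In siCtrl it was at 0.825 CPM per kb, far below ACLY and FASN, and the reason for this low level was not tested. Its controls spanned the level of siFAM53C 1, and the log2 fold change of -1.03 (SE 0.583) did not pass (adjusted p = 0.451). SCD, the stearoyl-CoA desaturase, was low in siCtrl 3 and siFAM53C 2 (282 and 231 CPM) and higher in the others (482, 504 and 420 CPM), with a log2 fold change of -0.38 (adjusted p = 0.671) and, with the term for the split, -0.25 (adjusted p = 0.0303). ELOVL6, a fatty acid elongase, had both siFAM53C libraries below every control, at -0.22 (95% interval -0.45 to 0.02, adjusted p = 0.326). The desaturases FADS2 and FADS1 were at 0.43 and 0.15, and neither passed (adjusted p = 0.331 and 0.601). With the term for the split, FASN and FADS2 were called higher and ACLY and SCD lower. That fit called 6.76% of all genes higher and 10.7% lower.

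**Figure D4:**
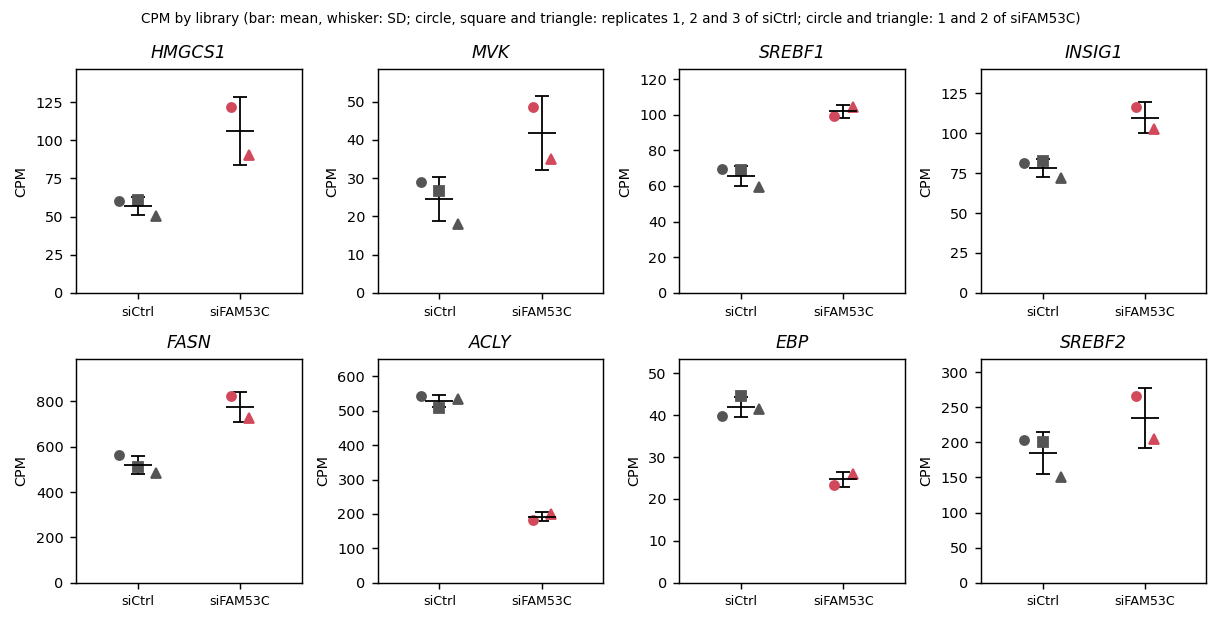
CPM (y axis, from 0) of 8 genes in the 3 siCtrl and 2 siFAM53C libraries, with the mean as a bar and the SD as whiskers. ACLY fell from 528 ± 18.4 (SD, n = 3) to 192 ± 12.3 CPM (SD, n = 2) and EBP from 42.0 ± 2.31 to 24.7 ± 1.85, while HMGCS1 rose from 57.1 ± 6.03 to 106 ± 22.4, SREBF1 from 65.8 ± 5.62 to 102 ± 3.68 and FASN from 519 ± 39.7 to 776 ± 65.8; MVK, INSIG1 and SREBF2 did not pass the test.

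Of the 5 genes with GACAAGA in the 3′ UTR, shown above, 4 lay below 0 (ACLY, STARD4, SCD and ELOVL6) and IDI1 lay above 0, with a median of -0.38. Of the 29 tested genes without it, 6 lay below 0, with a median of 0.35. Over all genes tested with an annotated 3′ UTR, FAM53C left out, 11.6% held the heptamer, their median was -0.18 and 15.1% were called lower, against 0.02 and 2.92% for the genes without it. The heptamer was picked from these same data, so these values are not independent evidence. The genes with it had longer 3′ UTRs, with a median of 3853 bases in the panel against 1288 and of 3344 bases over all genes against 1386. EBP, the other gene called lower, does not hold it. Of the 63 tested genes of the wider pathway described last, 3 held it, with a median of 0.08 and 0 below 0, and the 60 without it had a median of -0.06 with 34 below 0, so the direction seen in the panel was not seen there. The 3′ UTR of FAM53C, the target of the siRNA pool, holds it as well, and the part of this sequence in the fall of ACLY was not tested.

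Of 66 other genes of the pathway, listed by function and not by their values, 63 were tested. LPIN2 was called higher and LRP8 and NUS1 lower, and the median log2 fold change of the 63 was -0.03. That is 1 higher and 2 lower of 63, beside the 0.489% and 3.47% of all genes given above. DESeq2 called 1 higher and 4 lower, where it called 2.02% of all genes higher and 6.98% lower. The fit with the term for the split called 4 higher and 11 lower, where it called 6.76% and 10.7% of all genes. LPIN2, a phosphatidate phosphatase of glycerolipid synthesis, was at 52.3, 56.4 and 51.7 CPM in siCtrl and at 76.3 and 75.7 CPM in siFAM53C, a rise of 0.51 on the log2 scale (adjusted p = 0.0375, SE 0.102). LRP8, a lipoprotein receptor, fell by 0.62 (adjusted p = 0.0479, SE 0.132), from 49.2, 45.5 and 55.1 CPM to 30.4 and 34.8 CPM. NUS1, a subunit of the enzyme that makes dolichol from a product of the mevalonate steps, fell by 0.45 (adjusted p = 0.0490, SE 0.0977), from 107, 103 and 104 CPM to 74.6 and 78.6 CPM. For these 3 genes the groups did not overlap. VLDLR, a lipoprotein receptor named here after its value was seen, had the largest negative value of the 63, at 18.4, 15.7 and 12.5 CPM in siCtrl and 9.86 and 6.49 CPM in siFAM53C. Its groups did not overlap, and its log2 fold change of -0.93 (SE 0.256) did not pass in edgeR (adjusted p = 0.107) but was called lower by DESeq2 (adjusted p = 0.0188) and with the term for the split (adjusted p = 0.00206).

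By function, the 12 genes of SREBP processing and sterol-regulated degradation had a median of -0.20, with 10 below 0 and 0 called (0 higher and 4 lower at an unadjusted p under 0.05, and 0 by DESeq2). Those 4 were the SREBP proteases MBTPS1 (-0.32) and MBTPS2 (-0.35), ERLIN2 (-0.44) and PAQR3 (-0.27), with adjusted p from 0.118 to 0.282. With the term for the split, 4 of the 12 were called lower: MBTPS1, MBTPS2, ERLIN2 and ERLIN1. For every list of this paragraph, the shares over all genes were 6.76% higher and 10.7% lower with that term. They were 2.02% and 6.98% with DESeq2, and 6.61% and 10.5% at an unadjusted p under 0.05. Of 8 tested LXR and oxysterol genes, 0 were called (1 lower at an unadjusted p under 0.05, and 0 by DESeq2), with a median of -0.11; the fit with the split term called 1 lower, RXRA. The 14 genes of uptake, lysosomal release and esters had a median of 0.01 and 1 call, LRP8; DESeq2 called 2 lower, LRP8 and VLDLR, and the split term 3, TMEM97 with them. The 29 of further lipid synthesis had a median of 0.04 and 2 calls, LPIN2 and NUS1. DESeq2 added ACSL4 as lower (adjusted p = 0.0357), and the split term gave 4 higher (LPIN2, SLC25A1, ACSS2 and DGAT1) and 3 lower (NUS1, ACSL4 and HACD3).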

How the data were processed

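RNA of 5 RPE-1 libraries was sequenced as paired reads. The values are raw counts per gene as deposited. The authors used cutadapt 2.10 for trimming, HISAT2 with reverse strandedness for alignment to hg38, and featureCounts for counting; the annotation release and the strand setting of the counting are not given in the sources used here. The methods describe duplicate samples and the labels 3 controls, all of which were used. From the counts, genes with low counts were removed (filterByExpr, minimum count 10, minimum total 15), libraries were scaled by TMM, and siFAM53C was compared with siCtrl over 15341 genes by edgeR 4.0.16 (robust quasi-likelihood test, Benjamini-Hochberg, threshold 0.05); DESeq2 1.42.0, limma 3.58.1, other scalings and filters, replicate blocks, a term for the library split and leaving out each library were alternatives, and the code was tested on simulated data. CPM use the TMM-scaled totals. Log2 CPM for the sides of the split add a prior count of 2. Exon lengths, overlaps and 3′ UTRs came from GENCODE release 44, in which 56105 of 64252 identifiers matched. The members and lists were chosen with earlier results of these data known. Values in every library are given for genes past the threshold, the 2 with the largest absolute change in each role, and INSIG1, SREBF1, SREBF2 and ABCA1; SCD and NPC1 were added after their values were seen. Of the other pathway genes, those past the threshold are named, and others, such as VLDLR, MBTPS1 and genes called only by an alternative, were added after their values were seen. Replicate libraries of a group differed by more than counting noise (chi-square per gene 9.20 to 42.9).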

Additional observations from a re-analysis of the deposited data

How the results depend on the processing

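The count of genes of the panel called higher was 3 in the report and 6 with DESeq2. It was 10 with no filter on low counts, 16 with a term for the library split and 10 at an unadjusted p under 0.05. It was 0 to 5 when 1 siCtrl library was left out. The count called lower was 2 in the report and 2 with DESeq2. It was 3 with no filter, 4 with the term for the split and 3 at an unadjusted p under 0.05. With 1 siCtrl library left out it was 1 to 2. Where 1 siFAM53C library was left out, the lone one was assumed to vary like the controls. Shares over all genes are given above only for the main fit, DESeq2, the split term and the unadjusted p. The other counts of calls in this paragraph have no such background and are not a result about the panel. A replicate block by title numbers gave 5 genes called higher, and a block by the numbers in column names gave 14. Either block gave 2 called lower. The numbers give only 2 pairs, whose deviations from the group means correlated at 0.169 and -0.285 by titles and 0.169 and 0.371 by column names. With 2 siFAM53C libraries, the deviations of 1 are the negative of those of the other. These correlations can therefore neither establish nor refute a pairing. The median log2 fold change, 0.30, stayed above 0 in all alternatives (0.12 to 0.42 when 1 library was left out, the lowest without siFAM53C 1). Limma-voom, size factors in edgeR, library totals only, a CPM filter and the fit without the robust option, which was chosen after seeing the data, called 3 to 4 genes higher and 2 lower. Over the alternatives, 26 of the 34 genes kept their sign and 8 changed it, none of them called in the report; the cause was not tested. PMVK was -0.168 with the block by titles and -0.0282 on the side of siFAM53C 1, ACAT2 -0.0253 with the block by titles, MSMO1 0.0706 with the block by column names and 0.0956 on the side of siFAM53C 2, ABCA1 0.158 on the side of siFAM53C 1, and MYLIP -0.155 with limma-voom, -0.179 with the block by column names, -0.185 with the term for the split and -0.898 on the side of siFAM53C 1. When 1 library was left out, the ranges were -0.154 to 0.207 for PMVK, -0.250 to 0.432 for ACAT2, -0.0351 to 0.266 for SQLE, -0.308 to 0.0718 for MSMO1, -0.0395 to 0.340 for SC5D, -0.295 to 0.494 for NPC1, -0.349 to 0.0374 for ABCA1 and -1.34 to 1.07 for MYLIP. Counting noise is largest for MYLIP, with 6 to 29 reads per library.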
